A study of Mus musculus with 8 samples.

Results

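The 10 genes described here, of 55487 in the deposited gene table, belong to the program by which antibody-secreting cells make and export protein. They were taken from the table by symbol. Sdc1, Jchain, Mzb1 and Tnfrsf17 are treated as plasma cell genes. Xbp1, Derl3, Hspa5, Pdia4, Creld2 and Sdf2l1 are treated as general secretory genes, which many cell types use. All 10 had a row, and all 10 passed the filter for testing (at least 1 FPKM in at least 2 libraries), although Sdc1 and Tnfrsf17 reached 1 FPKM in no YFP+ library. Derl3 reached it in WT YFP+ 24 alone of the YFP+ libraries. FPKM are fragments scaled to transcript length and to the mapped total, so levels of different genes can be set side by side per length.

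The libraries came from splenic regulatory T cells (Tregs, the CD4 subset that restrains immune responses) of mice without tumors, in a study of SRC-3, a transcriptional coactivator encoded by Ncoa3. The 4 groups had 2 libraries each. WT YFP+, numbered 23 and 24, were YFP+ Tregs of control mice on C57BL/6. SRC-3 KO mice on a mix of C57BL/6 and 129SvEv gave both YFP+ Tregs (KO YFP+) and YFP- Tregs (KO YFP-), each numbered 84 and 85. SRC-3ff, numbered 68 and 72, were Tregs of a second control on 129SvEv whose cell type label names no YFP sort. Values are given below in this order of groups and numbers, with the lower number first. The sources used here do not say what drives YFP, which part of Ncoa3 is deleted or how old the mice were. Neither control thus shares its strain with the knockout, and comparing SRC-3ff with a YFP+ group also compares sorts.

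Plasma cells are the end stage of the B cell lineage and secrete antibody. Immunoglobulin chains enter the endoplasmic reticulum (ER), are folded by chaperones such as BiP (Hspa5) and by disulfide isomerases, and chains that fail are returned to the cytosol by ER-associated degradation. The unfolded protein response adjusts this capacity to load through the sensors IRE1, ATF6 and PERK, and XBP1, spliced by IRE1, is required for the full secretory state of plasma cells. T cells run the same ER machinery at a lower level, while J chain and immunoglobulin transcripts are mainly products of the B lineage.

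The libraries summed to between 384107 and 416393 FPKM, and 12573 to 13251 genes reached 1 FPKM. Their sequencing depth is unknown. Ncoa3 measured 46.3 and 42.7 FPKM (WT YFP+), 10.9 and 10.2 FPKM (KO YFP+), 32.1 and 32.2 FPKM (KO YFP-), then 49.7 and 35.4 FPKM (SRC-3ff). The loss was thus seen in the libraries labelled KO YFP+, and the name KO YFP- follows its label. Cd4 lay between 140 and 212 FPKM in all 8 libraries. Foxp3, the defining Treg factor, was detected in all 8, but at 19.9 to 31.0 FPKM in the 4 libraries labelled YFP+ Tregs and at 113 to 205 FPKM in the other 4. The other 4 also held more transcripts of B cells and other lymphocytes, given with the marker lists. Antigen receptor genes took 2.73% to 3.34% of the FPKM sum in the YFP+ libraries and 4.86% to 9.38% in the others.

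The 10 genes differed between the YFP+ libraries and the rest. The values of 9 of the 10 genes, all but Xbp1, were lower in each of the 4 YFP+ libraries than in each of the other 4. Among all 14134 genes tested, 10.9% had this pattern. The plasma cell genes differed by the largest factors, with mean FPKM 15.9 times higher outside the YFP+ groups for Jchain and 18.8 times for Mzb1. The 6 secretory genes were expressed in every library, and their mean ratios ran from 1.19 for Xbp1 to 6.16 for Derl3. In bulk RNA of this kind, more cells of a type and more RNA per cell cannot be told apart.

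**Figure D1:**
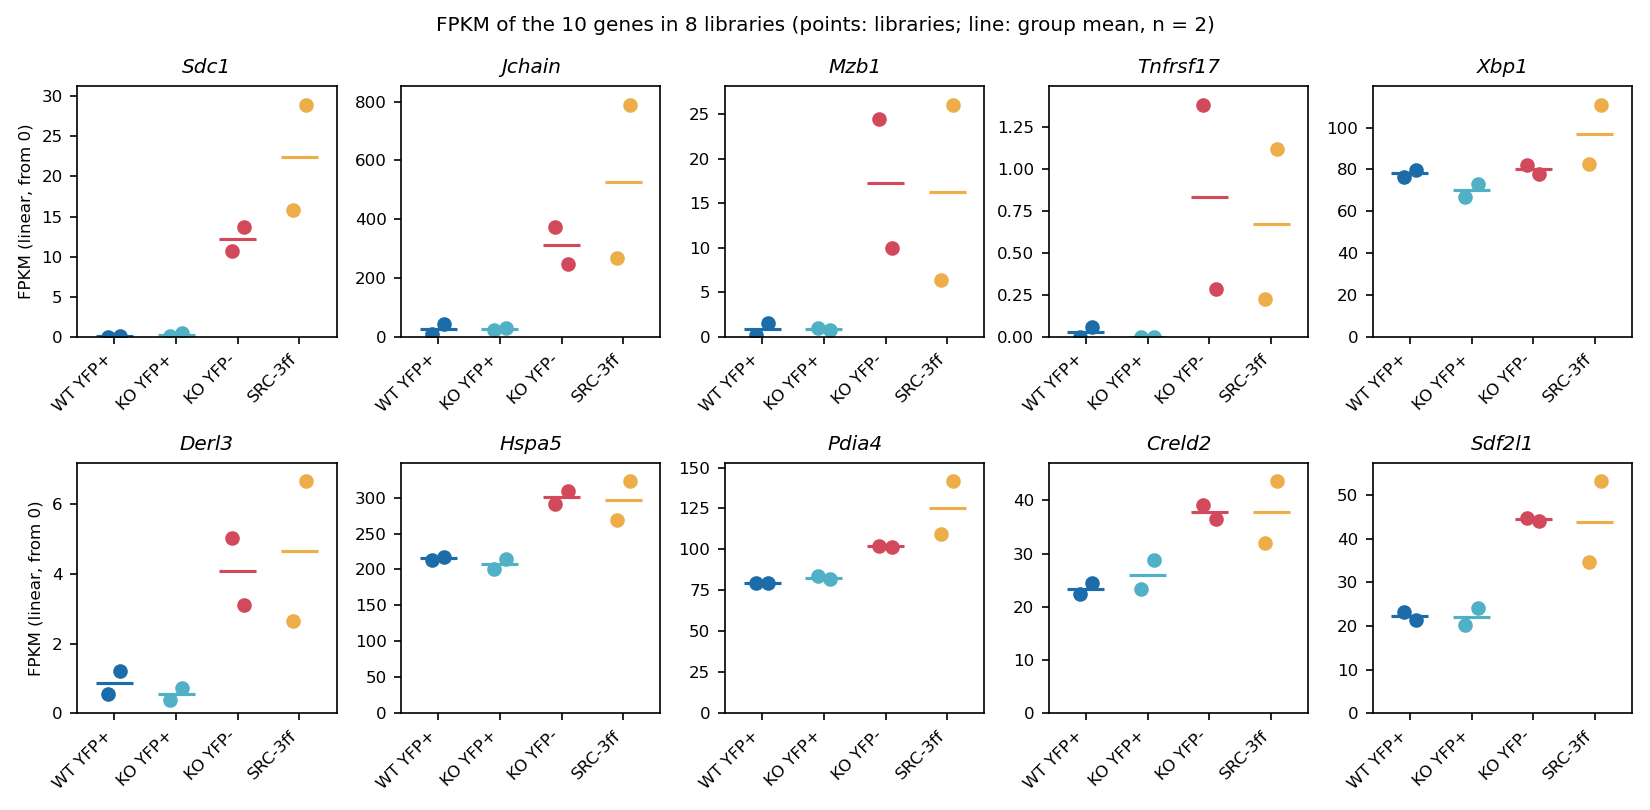
FPKM of the 10 genes (y axis, linear from 0, own scale in each panel) in the 4 groups (x axis), with 1 point per library and a line at the mean of the 2 libraries. Sdc1, Jchain, Mzb1 and Tnfrsf17 sit near 0 in both YFP+ groups, Xbp1 is at 66.9 to 111 FPKM throughout, and SRC-3ff 72 is the highest library for every gene but Tnfrsf17.

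Jchain, on chromosome 5, encodes the joining chain that links IgA and IgM into polymers, and it was the most abundant of the plasma cell genes. It measured 9.42 and 44.6 FPKM in the WT YFP+ pair, 22.4 and 29.3 in the KO YFP+ pair, 375 and 247 in the KO YFP- pair and 266 and 790 in the SRC-3ff pair. Every library outside the YFP+ groups was above every YFP+ library, the lowest by 5.54 times the highest YFP+ value. In KO YFP- 84 and SRC-3ff 72 Jchain exceeded Hspa5, the most abundant secretory gene of the 6. The mean was 26.4 ± 14.6 FPKM (SD, n = 4 libraries) in the YFP+ groups and 420 ± 253 (SD, n = 4) in the others. The fitted difference was -3.96 ± 0.52 on the log2 scale (limma standard error, adjusted p = 0.0039), and this call held in each alternative setting.

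Sdc1, on chromosome 12, encodes syndecan-1 (CD138), the heparan sulfate proteoglycan used to sort plasma cells and also reported on IL-17-producing innate-like T cells of mice. It measured 0.0257 and 0.0873 FPKM (WT YFP+), 0.0474 and 0.458 FPKM (KO YFP+), 10.7 and 13.7 FPKM (KO YFP-), then 15.9 and 29.0 FPKM (SRC-3ff). This was the widest gap of the 10 genes, with the lowest value outside the YFP+ groups 23.3 times the highest within them. The mean was 0.155 ± 0.204 FPKM (SD, n = 4) in the YFP+ groups against 17.3 ± 8.06 (SD, n = 4) in the others. Its log2 difference was -3.91 ± 0.22 (limma adjusted p = 0.00025), which the added 1 FPKM makes smaller than the ratio of the means. The call held in every alternative run for it.

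Mzb1, on chromosome 18, encodes an ER protein of marginal zone B cells and plasma cells that helps assemble IgM. It measured 0.175 and 1.58 FPKM in the WT YFP+ pair, 1.002 and 0.800 in the KO YFP+ pair, 24.5 and 9.95 in the KO YFP- pair and 6.40 and 26.1 in the SRC-3ff pair. The groups did not overlap, and the log2 difference was -3.08 ± 0.49 (limma adjusted p = 0.0078). Without the filter on low values the adjusted p was 0.053. Spata24 overlaps Mzb1 on the same strand in the annotation and was itself at 0.594 to 16.6 FPKM, so reads could be divided between both genes.

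Tnfrsf17, on chromosome 16, encodes BCMA, the receptor through which long-lived plasma cells receive survival signals. It was listed at 0 in WT YFP+ 23 and in both KO YFP+ libraries and at 0.0610 FPKM in WT YFP+ 24. The KO YFP- pair reached 1.38 and 0.282 FPKM, and the SRC-3ff pair 0.226 and 1.12 FPKM. Its values did not overlap, but the log2 difference of -0.73 ± 0.26 missed the threshold (limma adjusted p = 0.12). At these levels the added 1 FPKM takes up most of the change, and a value listed at 0 can also be a failed estimate.

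Hspa5, on chromosome 2, encodes BiP, the ER member of the HSP70 chaperone family. It measured 213 and 218 FPKM (WT YFP+), 201 and 215 FPKM (KO YFP+), 291 and 310 FPKM (KO YFP-), then 269 and 323 FPKM (SRC-3ff). The gap was narrow beside the spread of plasma cell genes, since the lowest value outside the YFP+ groups was 1.24 times the highest within them, but both YFP+ groups were tightly placed. Means were 212 ± 7.25 and 298 ± 23.4 FPKM (SD, n = 4 each). The log2 difference was -0.49 ± 0.08 (limma adjusted p = 0.0076), and it held in every alternative run for it.

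Sdf2l1, on chromosome 16, encodes an ER protein that works with BiP and its J-domain cochaperones. It measured 23.2 and 21.5 FPKM in the WT YFP+ pair, 20.1 and 24.1 in the KO YFP+ pair, 44.8 and 44.0 in the KO YFP- pair and 34.6 and 53.2 in the SRC-3ff pair. Its mean was 1.99 times higher outside the YFP+ groups, and the log2 difference was -0.95 ± 0.14 (limma adjusted p = 0.0059), again held in every alternative run for it. Pdia4, on chromosome 6, encodes the disulfide isomerase ERp72. It measured 79.2 and 79.5 FPKM (WT YFP+), 83.9 and 81.7 FPKM (KO YFP+), 102 and 102 FPKM (KO YFP-), then 109 and 142 FPKM (SRC-3ff). The 4 YFP+ libraries were lower than all others, at a log2 difference of -0.47 ± 0.09 (limma adjusted p = 0.014). Without KO YFP+ 85 the adjusted p of Pdia4 was 0.053.

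Creld2, on chromosome 15, encodes a secreted ER stress protein with disulfide isomerase activity. It measured 22.4 and 24.4 FPKM in the WT YFP+ pair, 23.3 and 28.7 in the KO YFP+ pair, 39.1 and 36.5 in the KO YFP- pair and 31.9 and 43.6 in the SRC-3ff pair. The groups were close, with SRC-3ff 68 only 1.11 times KO YFP+ 85, and the log2 difference was -0.59 ± 0.12 (limma adjusted p = 0.019). It missed the threshold without WT YFP+ 23 (adjusted p = 0.058), KO YFP+ 84 (0.059) or KO YFP- 84 (0.060). Derl3, on chromosome 10, encodes a Derlin of ER-associated degradation that is prominent in secretory tissues. It measured 0.539 and 1.21 FPKM (WT YFP+), 0.374 and 0.714 FPKM (KO YFP+), 5.05 and 3.11 FPKM (KO YFP-), then 2.65 and 6.67 FPKM (SRC-3ff). Of the 6 secretory genes it was the lowest in every library and had the largest ratio, with a log2 difference of -1.61 ± 0.28 (limma adjusted p = 0.011). Only WT YFP+ 24 of the YFP+ libraries reached 1 FPKM. Derl3 thus passed the filter for testing only through the groups where it was high, and it could only be called lower in the YFP+ groups. Without the filter on low values Derl3 (adjusted p = 0.061), Pdia4 (0.053) and Creld2 (0.072) missed the threshold, as Mzb1 did.

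Xbp1, on chromosome 11, encodes the transcription factor that drives much of this secretory program. It measured 76.3 and 79.8 FPKM in the WT YFP+ pair, 66.9 and 73.2 in the KO YFP+ pair, 82.1 and 77.9 in the KO YFP- pair and 82.5 and 111 in the SRC-3ff pair. KO YFP- 85 was below WT YFP+ 24, so Xbp1 was the 1 gene of the 10 whose values overlapped. Its log2 difference was -0.24 ± 0.10 (95% interval -0.48 to 0.00, limma adjusted p = 0.17). Without SRC-3ff 68 it passed, at an adjusted p of 0.032. The table holds a value per gene, so spliced and unspliced Xbp1 transcripts cannot be told apart.

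Of the 9 genes with a promoter in the RefSeq table, 3 secretory genes carry the ER stress response element in the 250 bases before their start or the 50 after it. The element is the paired motif CCAAT, 9 bases and CCACG, which ATF6 and XBP1 bind together with NF-Y. The letters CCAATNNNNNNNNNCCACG, searched on both strands, occurred in the windows of Hspa5, Derl3 and Creld2 and in 39 of all 32851 promoters (0.119%). The windows of Sdc1, Jchain, Tnfrsf17, Xbp1, Pdia4 and Sdf2l1 had no match. The UPR element TGACGTGG matched none of the 9, against 0.676% of all promoters. A match describes the sequence and is not a measured site. The 250 bases before the start of the 3 matching genes are shown because the motif is what these secretory promoters share, with Jchain as an abundant plasma cell gene without it (RefSeq, GRCm38.p6). Hspa5 is chr2:34771840-34772089 on the + strand, Derl3 is chr10:75893148-75893397 on the + strand, Creld2 is chr15:88819396-88819645 on the + strand and Jchain is chr5:88527898-88528147 on the - strand. Capitals mark the element, which reads on the gene's strand in Hspa5 and on the opposite strand in Derl3 and Creld2.
Hspa5: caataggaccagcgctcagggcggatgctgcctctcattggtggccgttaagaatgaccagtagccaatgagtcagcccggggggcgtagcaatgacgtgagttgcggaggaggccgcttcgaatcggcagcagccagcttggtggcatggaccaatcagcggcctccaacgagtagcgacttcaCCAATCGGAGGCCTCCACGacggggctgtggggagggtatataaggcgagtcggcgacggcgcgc
Derl3: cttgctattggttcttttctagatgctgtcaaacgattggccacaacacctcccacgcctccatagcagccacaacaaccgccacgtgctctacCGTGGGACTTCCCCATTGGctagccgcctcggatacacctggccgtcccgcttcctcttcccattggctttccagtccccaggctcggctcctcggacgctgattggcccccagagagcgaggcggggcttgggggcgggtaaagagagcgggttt
Creld2: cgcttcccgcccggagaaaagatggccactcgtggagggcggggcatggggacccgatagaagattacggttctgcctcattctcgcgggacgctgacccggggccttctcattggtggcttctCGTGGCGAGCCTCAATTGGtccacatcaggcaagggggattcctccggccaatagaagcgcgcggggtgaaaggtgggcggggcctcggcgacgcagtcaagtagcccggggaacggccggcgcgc
Jchain: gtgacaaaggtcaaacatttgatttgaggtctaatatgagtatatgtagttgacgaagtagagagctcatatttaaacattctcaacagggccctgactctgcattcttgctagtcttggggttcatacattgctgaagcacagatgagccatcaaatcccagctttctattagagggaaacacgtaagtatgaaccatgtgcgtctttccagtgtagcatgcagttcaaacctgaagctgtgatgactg

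The element of Hspa5 lay 65 to 47 bases before the start, that of Derl3 156 to 138 and that of Creld2 126 to 108. The log2 differences of these genes in the YFP+ groups against the others were -0.49, -1.61 and -0.59. Sdf2l1 and Pdia4, which also fell, had no match in the window. The part of the element in these differences was not tested. Among the other ER lists, 6 of 17 chaperone genes with a promoter matched (Calr, Canx, Dnajc3, Ero1b, Hsp90b1 and Pdia6) and 1 of 12 genes of ER-associated degradation (Syvn1). There were 0 matches among 10 unfolded protein response genes, 19 translocation genes and 19 transport genes. None of 13 other plasma cell genes with a promoter did.

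In the comparison of the YFP+ groups with the other groups, 8 of the 10 genes fell (limma, Benjamini-Hochberg adjusted p below 0.05) and none rose, where 9.03% of all tested genes fell and 15.2% changed in either direction. Of these 8, 3 were plasma cell genes and 5 were secretory genes. Sdc1 and Derl3 passed the filter only through the groups where they were high. Here and in the pairwise sort comparisons they could thus only be called lower in the YFP+ groups. The median log2 difference was -3.50 over the 4 plasma cell genes and -0.54 over the 6 secretory genes, and -0.02 over all tested genes. The numbers 84 and 85 stand on both sides of this comparison.

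The YFP+ and YFP- sorts of the knockout carry the same numbers and the same strain label, but they differ in Ncoa3 as well as in sort, at 10.9 and 10.2 against 32.1 and 32.2 FPKM. Both KO YFP+ libraries were below both KO YFP- libraries for all 10 genes, a pattern that 27.0% of all tested genes had. For 84 and 85, KO YFP- exceeded KO YFP+ by factors of 225 and 29.96 for Sdc1, 16.7 and 8.45 for Jchain, 24.4 and 12.4 for Mzb1 and 13.5 and 4.35 for Derl3. The factors were 2.22 and 1.83 for Sdf2l1, 1.68 and 1.27 for Creld2, 1.45 and 1.44 for Hspa5, 1.22 and 1.24 for Pdia4 and 1.23 and 1.06 for Xbp1. Sdc1 (log2 -3.41 ± 0.31, limma adjusted p = 0.0038), Jchain (-3.52 ± 0.74, adjusted p = 0.045), Sdf2l1 (-0.98 ± 0.20, adjusted p = 0.040) and Hspa5 (-0.53 ± 0.11, adjusted p = 0.042) fell, 4 of 10 where 3.46% of tested genes fell and 4.9% changed. Mzb1 just missed, at log2 -3.14 ± 0.69 (adjusted p = 0.052), as did Derl3 at -1.70 ± 0.40 (adjusted p = 0.062). With the number 84 or 85 as a block, Sdc1 alone passed (limma adjusted p = 0.0069), and Jchain (0.074), Hspa5 (0.065) and Sdf2l1 (0.063) did not. Leaving out any 1 of the 4 knockout libraries also left 1 call, leaving out WT YFP+ 23 or 24 left 2, and leaving out SRC-3ff 68 or 72 gave 6.

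Each YFP+ group was also set against each group without that sort. These comparisons share libraries with one another and with the pooled one. KO YFP+ against SRC-3ff had 7 genes that fell, where 6.09% of tested genes did and 10.2% changed. They were Sdc1 (log2 -4.19, limma adjusted p = 0.0017), Jchain (-4.11, adjusted p = 0.021), Mzb1 (-2.90, adjusted p = 0.044), Derl3 (-1.79, adjusted p = 0.037), Sdf2l1 (-0.93, adjusted p = 0.033), Pdia4 (-0.58, adjusted p = 0.034) and Hspa5 (-0.50, adjusted p = 0.034). Leaving out KO YFP+ 84, KO YFP+ 85 or SRC-3ff 72 left 1 call, leaving out either WT YFP+ or either KO YFP- library left 2, and the block gave 4. WT YFP+ against SRC-3ff had 6, where 5.49% of tested genes fell and 9.22% changed. They were the same genes without Derl3, whose log2 difference was -1.52 (limma adjusted p = 0.060). That count was 1 without SRC-3ff 72, 2 without WT YFP+ 23 or 24 and 3 without KO YFP+ 84 or 85, and the block gave 3. It was 4 without KO YFP- 84 or 85.

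WT YFP+ against KO YFP- differs in genotype, strain and sort at once. In it 5 genes fell, Sdc1 (log2 -3.63), Jchain (-3.81), Mzb1 (-3.26), Sdf2l1 (-0.96) and Hspa5 (-0.48), at limma adjusted p between 0.0016 and 0.041. Of all tested genes 5.9% fell and 9.27% changed. Leaving out WT YFP+ 23, KO YFP- 84 or KO YFP- 85 left 1 call, leaving out WT YFP+ 24 left 2, and leaving out KO YFP+ 84 or 85 left 3. Sdc1 alone of the 10 genes held its call in every alternative in all 4 of these sort comparisons. It passed the filter for testing only through the groups where it was high, so it could only be called lower in the YFP+ groups.

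**Figure D2:**
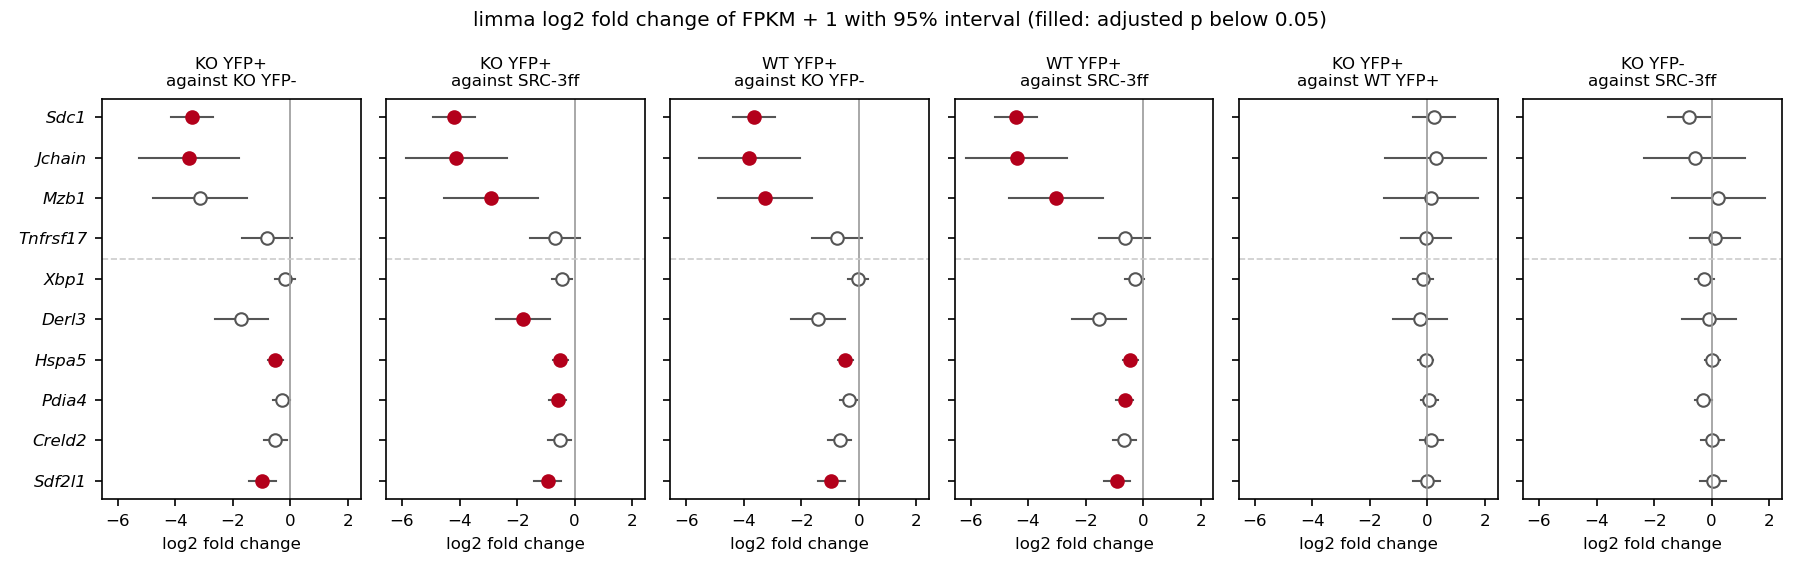
limma log2 fold change of FPKM + 1 (x axis) with its 95% interval for the 10 genes (rows) in 6 comparisons (panels), filled where the adjusted p was below 0.05. The 4 panels that set a YFP+ group against another hold 4, 7, 5 and 6 filled points, all at negative values, and the 2 panels on the right, KO YFP+ against WT YFP+ and KO YFP- against SRC-3ff, hold 0.

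No difference between knockout and control YFP+ cells passed for these genes. In KO YFP+ against WT YFP+, 0 of the 10 genes passed with limma, where 107 of 14134 genes did (0.757%) and 1476 had an unadjusted p below 0.05. The smallest adjusted p was 0.76, for Xbp1, and no unadjusted p of the 10 was below 0.05. The intervals were narrow for the abundant secretory genes. Hspa5 differed by log2 -0.05 (95% interval -0.31 to 0.20), Pdia4 by 0.06 (-0.23 to 0.35), Xbp1 by -0.15 (-0.49 to 0.18), Creld2 by 0.14 (-0.26 to 0.54) and Sdf2l1 by -0.02 (-0.48 to 0.45). They were wide for Jchain, at 0.29 (-1.46 to 2.04), and Mzb1, at 0.13 (-1.50 to 1.75). WT YFP+ 23 was low for both, since WT YFP+ 24 had 4.73 times its Jchain and 8.99 times its Mzb1, and without WT YFP+ 23 the differences were -0.78 and -0.44. Sdc1 differed by 0.23 (-0.50 to 0.95) and Derl3 by -0.26 (-1.20 to 0.67).

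In KO YFP- against SRC-3ff, 0 of the 10 genes passed with limma, where 0.644% of all tested genes did and 2587 had an unadjusted p below 0.05. The nearest was Sdc1, with means of 12.2 ± 2.15 FPKM (KO YFP-) and 22.4 ± 9.26 FPKM (SRC-3ff; SD, n = 2 each), a log2 difference of -0.78 (95% interval -1.51 to -0.05, limma adjusted p = 0.25). Hspa5 differed by 0.03 (-0.23 to 0.28) and Jchain by -0.59 (-2.34 to 1.16). The difference between sorts was compared directly between knockout and control animals, as KO YFP+ minus KO YFP- against WT YFP+ minus SRC-3ff. In that test 0 of the 10 genes passed with limma (0.481% of all genes did, and 1477 had an unadjusted p below 0.05). The largest estimate was 1.004 ± 0.43 for Sdc1 (log2, limma adjusted p = 0.48). Strain and sort differ together on the control side of this test and cannot be told apart.

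The 2 libraries of a group lay apart by different factors from gene to gene, which was not tested. SRC-3ff 72 had 2.97 times the Jchain of SRC-3ff 68, 4.07 times the Mzb1, 4.96 times the Tnfrsf17, 1.82 times the Sdc1 and 2.52 times the Derl3. For Hspa5, Pdia4, Xbp1, Creld2 and Sdf2l1 the factor was 1.20 to 1.54. KO YFP- 84 had 1.52 times the Jchain of KO YFP- 85, 2.46 times the Mzb1, 4.90 times the Tnfrsf17 and 1.62 times the Derl3, while Hspa5 was at 0.938 and Sdf2l1 at 1.02 times. Sdc1 went the other way from the rest of the plasma cell genes in KO YFP-, since number 84 had 0.779 times the value of number 85.

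The genes whose pattern over the 8 libraries was nearest to each of the 10 were found by the mean absolute difference of log2(FPKM + 1) after each gene was centred on its mean. For Jchain these were Igkc (0.132), the kappa constant gene, Igha (0.267), the IgA heavy chain constant gene, and Trdc (0.374), the T cell receptor delta constant gene. Igkc was at 99.0 to 469 FPKM in the YFP+ libraries and at 2390 to 6980 in the others, and like Jchain it was higher in KO YFP- 84 than in 85. For Sdc1 they were Sox13 (0.127), a transcription factor of gamma delta T cells, Anxa1 (0.148), annexin A1, and Tmem176a (0.186). Sox13 was at 10.6 and 13.7 FPKM in KO YFP- 84 and 85, so it shared with Sdc1 the higher value in number 85. For Derl3 the nearest was Cd79a (0.110), a B cell receptor chain, for Mzb1 it was Klrg1 (0.236) and for Tnfrsf17 it was Mki67 (0.095).

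For 3 of the secretory genes an ER gene was among the 3 nearest. For Hspa5 the nearest was Ube2g2 (0.0438), a ubiquitin-conjugating enzyme of ER-associated degradation, for Creld2 they were Sec11c (0.0397), a signal peptidase subunit, and Pdia6, a disulfide isomerase, and Sec24d, a COPII coat protein, was among those of Sdf2l1. For Xbp1 the nearest was Cd48 (0.0497), an immune cell surface protein, and for Pdia4 it was Jpt2 (0.0495). These measures are descriptions over 8 libraries that share the difference between sorts.

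**Figure D3:**
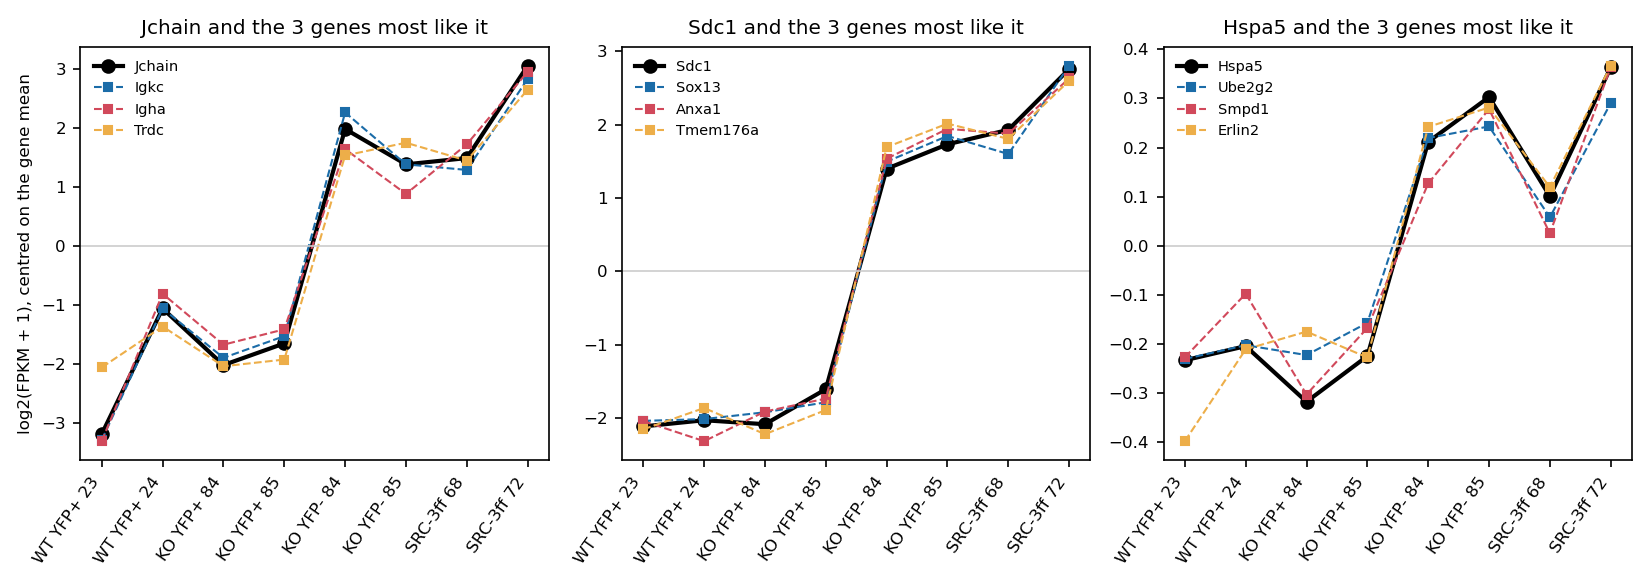
log2(FPKM + 1) centred on each gene's mean (y axis, own scale in each panel) in the 8 libraries (x axis) for Jchain, Sdc1 and Hspa5 (black circles) and the 3 genes nearest to each (coloured squares, dashed). The step between the 4 YFP+ libraries on the left and the others spans several log2 units for Jchain and Sdc1 and less than 1 for Hspa5.

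Wider lists of each kind were read in the comparison of the YFP+ groups with the others, where 9.03% of all tested genes fell. Of 11 tested immunoglobulin constant genes 8 fell and none rose (median log2 -3.47). Igha measured 18.5 to 109 FPKM in the YFP+ libraries and 355 to 1500 in the others (log2 -3.60 ± 0.55, limma adjusted p = 0.0071), and Ighg3 fell by 3.76 ± 0.49 (adjusted p = 0.0036). Of 13 other plasma cell genes 7 fell (median -0.75). Prdm1, the repressor BLIMP-1 that commits B cells to the plasma cell fate and is also used by effector Tregs, was at 1.93 to 2.84 FPKM in the YFP+ libraries and 6.02 to 9.34 in the others (-1.30 ± 0.16, limma adjusted p = 0.0030). Slamf7, a receptor shared by plasma cells and cytotoxic lymphocytes, was at 0.770 to 1.67 and 7.75 to 19.6 FPKM (-2.50 ± 0.26, adjusted p = 0.0018). Ell2, an elongation factor that shifts immunoglobulin mRNA to its secreted form, also fell (-1.23 ± 0.16, adjusted p = 0.0037). It reached 1 FPKM in no YFP+ library, so it could only be called lower in them. Irf4, required in both plasma cells and effector Tregs, was at 3.08 to 5.19 and 4.23 to 7.01 FPKM, and these ranges overlapped.

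Of 20 tested chaperones and folding enzymes 8 fell and none rose (median log2 -0.36). Hsp90b1, the ER chaperone GRP94, was at 48.9 to 62.6 FPKM in the YFP+ libraries and 86.7 to 125 in the others (-0.85 ± 0.10, limma adjusted p = 0.0027). Ero1l, the oxidase that recharges disulfide isomerases and is also induced by hypoxia, was at 4.55 to 6.79 and 16.1 to 30.9 FPKM (-1.67 ± 0.18, adjusted p = 0.0021). Of 16 genes of ER-associated degradation 2 fell (median -0.16), Ube2g2 (-0.41) and Sel1l (-0.30). Beside the 9.03% of all tested genes that fell, 2 of 16 is not read as a result about that list. Of 25 genes of translocation and N-glycosylation 4 fell (median -0.13), and of 21 genes of ER to Golgi transport 4 fell (median -0.13). Lman1, the cargo receptor ERGIC-53, had the smallest p of these (-0.61 ± 0.08, limma adjusted p = 0.0035), and Sec24d fell by more (-1.02 ± 0.14, adjusted p = 0.0046).

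Of 12 sensors and factors of the unfolded protein response 4 fell and 1 rose (median log2 -0.12). Atf6, a sensor cleaved into a transcription factor, was at 1.20 to 1.65 FPKM in the YFP+ libraries and 3.20 to 5.34 in the others (-1.17 ± 0.17, limma adjusted p = 0.0059). Ern1, which encodes the sensor IRE1 that splices Xbp1, was at 0.419 to 1.34 and 1.68 to 4.16 FPKM (-1.04 ± 0.23, adjusted p = 0.026). Only WT YFP+ 24 of the YFP+ libraries reached 1 FPKM of Ern1, so it could only be called lower in them. Atf4 and Ddit3, transcription factors downstream of PERK, overlapped between the groups, at 32.6 to 40.2 and 16.4 to 28.3 FPKM over all 8 libraries. Trib3 did not overlap, at 1.11 to 4.87 FPKM in the YFP+ libraries and 0.538 to 1.004 in the others, but it did not pass. The gene that rose was Ppp1r15a, whose values overlapped between the groups and are given below. For all tested genes the median log2 difference was -0.02 and the share that fell 9.03%. Quantile normalization shifted the median of all tested genes by 0.103, and the split of calls over all genes went from 872 higher and 1277 lower to 1229 and 1002. Under it 8 of the 10 genes still fell.

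**Figure D4:**
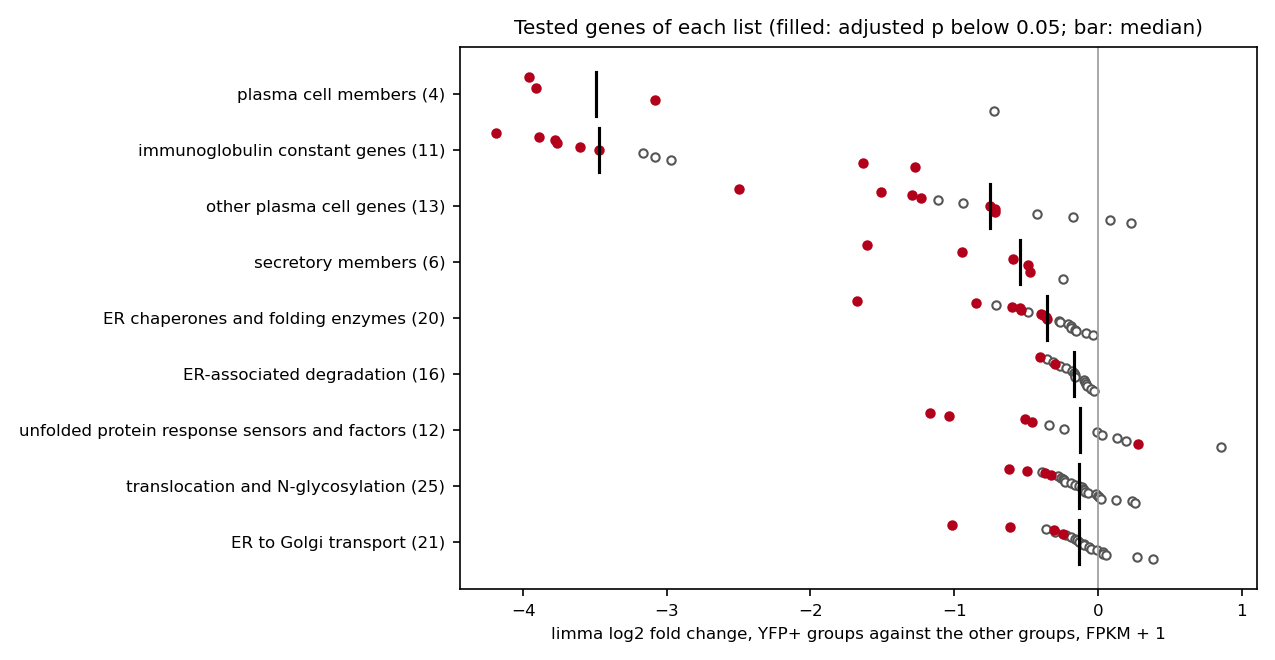
limma log2 fold change of the YFP+ groups against the other groups (x axis) for each tested gene of 9 lists (rows, number tested in brackets), filled where the adjusted p was below 0.05, with a bar at the list's median. The medians run from -3.50 for the plasma cell genes and -3.47 for immunoglobulin constant genes to -0.54 for the 6 secretory genes, -0.36 for chaperones and between -0.16 and -0.12 for the remaining ER lists.

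Between KO YFP+ and WT YFP+, none of the immunoglobulin constant, other plasma cell, chaperone, ER-associated degradation, translocation or transport genes passed with limma. The exception among the ER lists was Ppp1r15a, which encodes GADD34, the subunit that directs dephosphorylation of eIF2 alpha. The WT YFP+ pair measured 84.9 and 84.0 FPKM and the KO YFP+ pair 44.7 and 43.7 FPKM (log2 -0.92 ± 0.09, limma adjusted p = 0.0092). The KO YFP- pair was at 34.8 and 37.3 FPKM and the SRC-3ff pair at 74.4 and 65.4. Both groups of the knockout mice were thus below both controls. Ncoa3 was at 10.9 and 10.2 FPKM in KO YFP+ but at 32.1 and 32.2 in KO YFP-, and its part in this pattern was not tested. Genotype and strain differ together in KO YFP+ against WT YFP+ and cannot be told apart. The largest difference in the lists without a call was 3.00 (log2), for Ly6k. It measured 3.70 and 7.12 FPKM (WT YFP+), 32.8 and 71.3 (KO YFP+), 16.7 and 38.2 (KO YFP-), then 48.5 and 35.5 (SRC-3ff). In KO YFP+ against KO YFP-, 4 of 13 other plasma cell genes, 1 of 11 immunoglobulin constant genes (Ighd), 1 of 20 chaperones (Ero1l), 1 of 12 unfolded protein response genes (Atf6) and 2 of 21 transport genes (Lman1 and Sec24d) fell, and none of these lists had a gene that rose. Of all tested genes 3.46% fell in that comparison, and 0.757% changed between KO YFP+ and WT YFP+. Counts of 1 or 2 in a list are thus not read as a result about that list.

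Markers of other cell types moved with the plasma cell genes. Calls in these lists are from the YFP+ groups against the others, where 9.03% of all tested genes fell. The summed FPKM of 12 immunoglobulin constant genes ran from 474 to 1245 in the YFP+ libraries and from 4258 to 12336 in the others, with KO YFP- 84 (7883) above KO YFP- 85 (4274) and SRC-3ff 72 (12336) above SRC-3ff 68 (4258). Of these genes Ighm, the IgM heavy chain constant gene, was at 353 to 502 FPKM in the YFP+ libraries and 837 to 2495 in the others. It made up most of the sum in WT YFP+ 23 (353 of 474 FPKM). The 15 B cell markers summed to 47.6 to 85.5 FPKM in the YFP+ libraries and 225 to 654 in the others, and 7 of 8 tested fell. Blk, a kinase of B cells that some innate-like T cells of mice also express, was at or below 0.163 FPKM in the YFP+ libraries and at 28.4 to 62.1 in the others. H2-Ab1, an MHC class II chain of antigen-presenting cells, was at 1.58 to 5.30 and 24.6 to 106 FPKM. Pax5, which defines the B lineage, was at or below 0.00765 FPKM and at 0 in 5 libraries, and the B cell surface gene Ms4a1 was at or below 1.72 FPKM. Both Jchain and the B cell sum were higher in KO YFP- 84 than in 85 and in SRC-3ff 72 than in 68. Cd74 made up much of that sum, at 185 and 117 FPKM in KO YFP- 84 and 85 and at 221 and 359 in SRC-3ff 68 and 72. H2-Ab1 followed the same order, but Blk was lower in KO YFP- 84 (28.4) than in 85 (36.9). The sum is thus not a measure of B cells alone.

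The 11 markers of IL-17-type innate-like T cells summed to 13.9 to 21.6 FPKM in the YFP+ libraries and 123 to 341 in the others, and 9 of 9 tested fell, among them Trdc, Il17re and Il23r. In KO YFP- this sum was higher in number 85 (211) than in 84 (123), as Sdc1 was, while Il17a stayed at or below 0.149 FPKM and was at 0 in 5 libraries. The 10 NK cell markers summed to 35.3 to 66.4 and 131 to 425 FPKM, with 7 of 8 tested lower, and Ncr1 was at 0 in all 4 YFP+ libraries and at 2.19 to 4.48 in the others. The NK sum, too, was higher in KO YFP- 85 (425) than in KO YFP- 84 (257). For the myeloid sum KO YFP- 85 (13.2) was below KO YFP- 84 (18.6). The 10 myeloid markers summed to 0.800 to 2.18 and 13.2 to 43.2 FPKM, with 3 of 4 tested lower and Cd14 at or below 0.130. Among them Fcer1g, a signalling chain that NK cells also use, was at or below 0.0646 FPKM in the YFP+ libraries and at 4.60 to 21.3 in the others, and Tyrobp, likewise shared with NK cells, was at or below 0.374 and at 4.39 to 9.21 FPKM. The 10 plasmacytoid dendritic cell markers, cells that also express secretory genes, summed to 102 to 137 and 89.7 to 123 FPKM, with 2 of 6 tested lower and 1 higher, and Siglech at or below 0.306. The 10 T cell and Treg markers summed to 2388 to 3022 and 2141 to 3169 FPKM, with 1 of 10 tested lower, Foxp3 (log2 -2.67 ± 0.18, limma adjusted p = 0.00047), and 1 higher, Il2ra, the IL-2 receptor alpha chain (0.68 ± 0.09, adjusted p = 0.0035). In the YFP+ groups against the others, 9.03% of all tested genes fell and 15.2% changed. Blk, Il17re, Il23r, Ncr1, Fcer1g and Tyrobp reached 1 FPKM in no YFP+ library, so they could only be called lower there. The part of other cell types in the differences of the 10 genes was not tested.

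**Figure D5:**
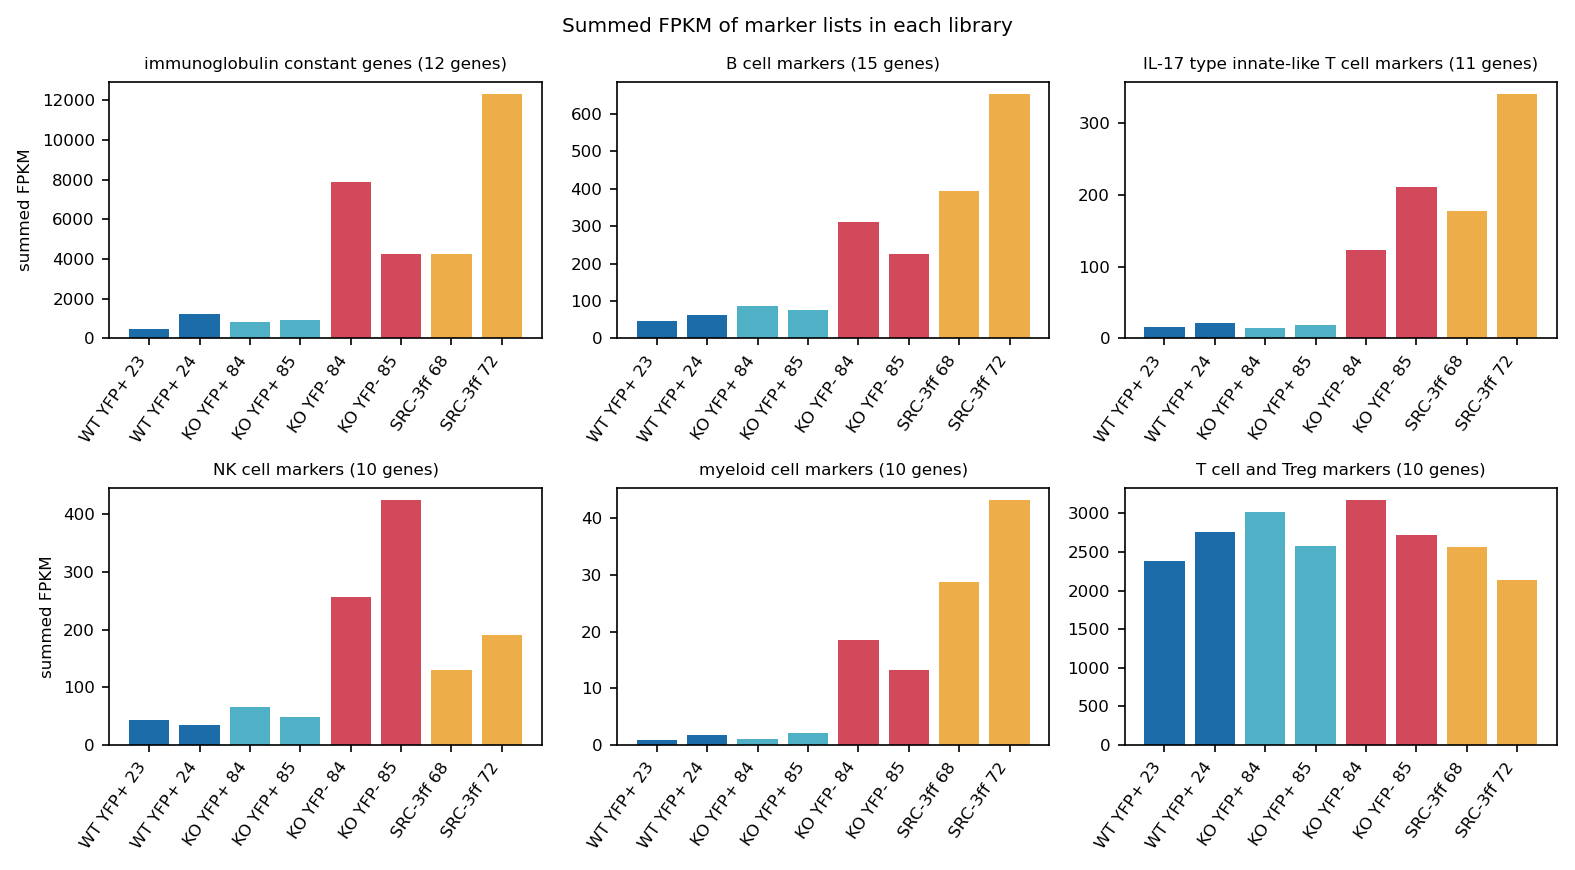
Summed FPKM of 6 marker lists (y axis, linear from 0, own scale in each panel) in each of the 8 libraries (x axis, 1 bar per library, no error as each bar is a single library). Immunoglobulin, B cell, IL-17-type, NK and myeloid sums are all higher in the 4 libraries outside the YFP+ groups. The sum of T cell and Treg markers, in which Foxp3 was lower in the YFP+ groups and Il2ra lowest in KO YFP-, runs from 2141 to 3169 FPKM.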

How the data were processed

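The submitters' processing notes name the tools Trim Galore, STAR, StringTie and the builds mm10, GRCm38. The deposited table holds FPKM for 55487 genes in 8 libraries, made by the authors from SMART-Seq v4 low-input libraries of total RNA. Tool versions, annotation and strand use: not given in the sources used here. Since these values are not counts, sequencing depth is unknown and intervals for counting error were not made.

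FPKM were used without further scaling. limma 3.58.1 in R 4.3.3 (lmFit, eBayes with a trend) was run on log2(FPKM + 1), which understates changes of low genes, for the 14134 genes that reached 1 FPKM in 2 or more libraries. One model of the 4 groups left 4 residual degrees of freedom and gave 8 comparisons, each adjusted over all tested genes by Benjamini-Hochberg at 0.05. Errors are limma standard errors. With 2 libraries a side, the smallest two-sided p of an exact permutation test is 0.333, so calls rest on spread shared across genes. The labels do not state a separate animal for each library, and p-values then measure only spread between libraries, which may be technical. The fit was tested on simulated data.

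The KO YFP+ and KO YFP- libraries share the numbers 84 and 85 in their titles, taken as animal numbers, and deviations of same-numbered libraries from their group means correlated at r = 0.137 over 14134 genes. The 10 genes, the lists and the tests were chosen with earlier results of these data known. The 10 genes were named in every library. Up to 3 called genes of the smallest p were named per list and comparison, with Ncoa3, Foxp3 as checks. The 3 genes of nearest pattern were found per gene, and the text names only some of them. Cd4, Ighm, Ly6k, Irf4, Atf4, Ddit3, Trib3 and defining markers given as low were chosen from the lists after their values were seen. Gene positions come from GENCODE M21 (55227 identifiers matched, 260 did not) and promoters from RefSeq GRCm38.p6 (9 of 10 genes). Tables and plots used Python 3.11.15, pandas 2.3.3 and matplotlib 3.10.9. The alternatives, 17 settings, were another pseudocount, filter, scaling, set of libraries or trend, the replicate block and each library left out.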

Additional observations from a re-analysis of the deposited data

How the results depend on the processing

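Counts of the 10 genes that passed depended on the setting in the 4 pairwise sort comparisons. KO YFP+ against KO YFP- gave 4, and 1 without a filter on low values, with the replicate block or without a trend (1 to 6 with each library left out). KO YFP+ against SRC-3ff gave 7, and 1 without a filter, 4 with the block, 3 without a trend and 2 with only the libraries compared (1 to 8 with each library left out). WT YFP+ against SRC-3ff gave 6, and 1 without a filter, 3 with the block, 3 without a trend and 1 with only the libraries compared (1 to 8). WT YFP+ against KO YFP- gave 5, and 1 without a filter and 4 with the block (1 to 7). The YFP+ groups against the others gave 8, and 4 without a filter (7 to 9). The other 3 comparisons gave 0 in each setting. Without a filter more genes were tested. The cause of the other changes was not tested.

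Of 30 called values of the 10 genes, 8 held in every alternative, and none changed sign. These were Sdc1 in the 4 pairwise sort comparisons and Sdc1, Jchain, Hspa5 and Sdf2l1 in the comparison of the YFP+ groups with the others. Sdc1 entered the main test only through the groups where it was high, which fixes the direction of its calls. Under the block no call of that comparison was lost. The sign changed in values that never passed. Xbp1 in WT YFP+ against KO YFP- was 0.015 with median-of-ratios scaling and ran from -0.073 to 0.0020 with each library left out, above 0 without KO YFP- 84. In KO YFP+ against WT YFP+ the ranges with each library left out were -0.012 to 0.47 for Sdc1 (lowest without KO YFP+ 85), -0.78 to 1.35 for Jchain and -0.44 to 0.69 for Mzb1 (both lowest without WT YFP+ 23), -0.0053 to 0.29 for Creld2 (lowest without KO YFP+ 85) and -0.14 to 0.10 for Sdf2l1 (above 0 without KO YFP+ 84, and 0.04 without WT YFP+ 23). A library left out leaves 1 in its group, which is then assumed to vary like the others.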
